A study of Rattus norvegicus with 32 samples.

Results

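Collagen genes were followed in RNA of liver sinusoidal endothelial cells (LSECs), the cells that line the hepatic sinusoids, isolated from rats with and without toxic liver injury. A gene was taken as a member when its symbol had the form of a collagen chain name (Col, a type number, a, a chain number), whatever its values. The rule found 44 of the 32623 genes, under 43 symbols, since Col23a1 had 2 Ensembl identifiers. Col9a1 had no count in any of the 32 libraries. Col1a2 and Col21a1 were not analysed here.

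The carbon tetrachloride (CCl4) experiment used male Wistar Han rats that inhaled this hepatotoxin, and phenobarbital was added to the drinking water in this model. It gave 6 healthy libraries, 5 libraries after 2 weeks of CCl4 (acute), 5 after 6 weeks (fibrosis) and 6 from cirrhotic rats, for which the design text gives 12 to 14 weeks. A second experiment with thioacetamide (TAA), a hepatotoxin injected intraperitoneally over weeks, had 5 libraries labelled control and 5 labelled TAA control. Labels and paper do not settle which of these groups received TAA, and they name different strains for it (Wistar Han and Sprague-Dawley), so signs are given as labelled and with no direction of disease. LSECs were isolated some days after the last dose. Ages are not given in the sources used here. Total counts per library ranged from 25646531 to 46464289. Levels are given as CPM (counts divided by library size, scaled with TMM factors within each experiment), and they are not compared between experiments. CPM is not corrected for transcript length, so levels of different genes are not compared either.

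Collagens are trimers of chains wound into a triple helix. Fibrillar collagens (types I, III, V and relatives) form the scar of a fibrotic liver and are known as products of stellate cells and fibroblasts, while type IV collagen forms the sheet of basement membranes. The normal sinusoid has fenestrated endothelium without a continuous basement membrane, and the build-up of one along it is known as capillarization. Type IV has 6 chains, whose genes lie head to head in 3 pairs (Col4a1 with Col4a2, Col4a3 with Col4a4, Col4a5 with Col4a6), and the chains of the first pair form the widespread trimer.

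Promoter windows of 300 bases (250 before to 50 after the RefSeq start, GRCr8) are shown for the genes of the type IV pairs that carried many reads and diverged from each other, and for Col13a1, which followed the second pair. Reads were mapped to another build (Rnor_6.0), so these positions are those of RefSeq only. Of the 43 collagen symbols, 34 had a window. Capitals mark matches on either strand to the letters CCAAT, to those of the GC box, which are GGGCGG, to those of an AP-1 motif, which are TGANTCA, or to the letters TATAAA, and overlaps between motifs were allowed.
Col4a1 (chr16:84885347-84885646, plus strand): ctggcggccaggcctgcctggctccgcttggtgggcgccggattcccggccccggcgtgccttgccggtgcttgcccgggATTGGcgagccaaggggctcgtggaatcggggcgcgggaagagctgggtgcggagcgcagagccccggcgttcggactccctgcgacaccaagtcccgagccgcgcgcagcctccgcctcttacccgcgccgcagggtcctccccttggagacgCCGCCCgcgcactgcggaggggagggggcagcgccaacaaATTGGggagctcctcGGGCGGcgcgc
Col4a2 (chr16:84885471-84885770, minus strand): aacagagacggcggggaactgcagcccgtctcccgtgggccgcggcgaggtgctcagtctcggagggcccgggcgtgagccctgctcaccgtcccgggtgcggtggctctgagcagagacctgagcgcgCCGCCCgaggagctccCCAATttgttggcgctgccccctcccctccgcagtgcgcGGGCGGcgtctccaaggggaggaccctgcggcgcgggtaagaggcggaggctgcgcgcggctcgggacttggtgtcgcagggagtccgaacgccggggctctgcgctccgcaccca
Col4a3 (chr9:91323740-91324039, plus strand): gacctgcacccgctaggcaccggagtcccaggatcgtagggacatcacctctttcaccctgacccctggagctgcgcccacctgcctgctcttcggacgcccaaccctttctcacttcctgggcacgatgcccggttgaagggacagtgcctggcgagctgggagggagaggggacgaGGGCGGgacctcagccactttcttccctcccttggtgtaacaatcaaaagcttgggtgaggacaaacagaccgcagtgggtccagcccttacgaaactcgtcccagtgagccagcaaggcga
Col4a4 (chr9:91323528-91323827, minus strand): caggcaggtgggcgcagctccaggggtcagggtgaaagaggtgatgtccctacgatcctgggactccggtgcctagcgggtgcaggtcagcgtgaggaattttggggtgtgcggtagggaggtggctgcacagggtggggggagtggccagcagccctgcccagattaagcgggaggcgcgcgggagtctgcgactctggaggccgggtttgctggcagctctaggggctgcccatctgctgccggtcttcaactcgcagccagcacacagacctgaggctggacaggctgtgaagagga
Col13a1 (chr20:30466751-30467050, minus strand): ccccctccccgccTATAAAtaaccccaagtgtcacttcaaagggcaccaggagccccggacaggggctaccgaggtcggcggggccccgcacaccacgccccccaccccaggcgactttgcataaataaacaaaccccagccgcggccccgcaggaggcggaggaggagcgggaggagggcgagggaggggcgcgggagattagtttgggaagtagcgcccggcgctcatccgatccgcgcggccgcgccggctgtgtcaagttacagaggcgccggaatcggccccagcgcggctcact

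The RefSeq starts of Col4a1 and Col4a2 were 77 bases apart on opposite strands, and 176 bases were common to their windows. Those of Col4a3 and Col4a4 were 413 bases apart, with 88 common bases, and those of Col4a5 and Col4a6 were 1415 bases apart, with no overlap of windows. CCAAT was found in 2 places in the Col4a1 window and 1 in that of Col4a2, and in none of the windows of Col4a3, Col4a4 and Col13a1. The GC box was found in 2 places each for Col4a1 and Col4a2 (in the stretch they share), once for Col4a3 and not for Col4a4 or Col13a1. A TATAAA match was present far upstream of the Col13a1 start. Over all 33469 windows of this length, 37.5% held CCAAT, 33.1% the GC box, 7.33% TGANTCA and 14.2% TATAAA. Among the 34 collagen windows these shares were 29.4%, 55.9%, 2.94% and 8.82%. A match is a description of the letters and not a binding site.

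Between healthy and acute LSECs, collagen mRNAs were mostly lower, and at cirrhosis mostly higher than healthy. A gene was a differentially expressed gene (DEG) at an adjusted p-value under 0.05 (limma-voom, Benjamini-Hochberg over all genes tested) and a fold-change above 1.5. After acute injury 5 of the 30 collagen genes tested were up-regulated and 21 down-regulated against healthy LSECs, while 35.5% of all genes tested were up-regulated and 37.9% down-regulated. Their median log2 fold change was -2.27, against -0.086 over all genes tested. At fibrosis 8 of 31 were up-regulated and 17 down-regulated, with 35.3% and 34.9% of all genes (median log2 fold change -1.01 for the collagens, -0.031 for all genes). At cirrhosis the split turned, with 19 of 33 up-regulated and 3 down-regulated, beside 27.1% and 24.7% of all genes (median 1.15, and 0.07 for all genes). The count filter was applied anew in each comparison. A gene could pass it through the counts of 1 group alone, and the call of such a gene adds no support. Col4a6, Col15a1 and Col24a1 passed it against healthy only at cirrhosis (27, 26 and 42 counts in healthy, 134, 470 and 156 in cirrhotic libraries). Col4a6 and Col15a1 are among the 19, and as they passed through their high cirrhotic counts they add no support. Col19a1, up-regulated at acute injury and fibrosis, passed against healthy only at these stages, through its counts there. At acute injury Col6a6, Col8a2, Col17a1 and Col22a1 passed through healthy counts (186, 292, 183 and 535, against 21, 22, 30 and 14 in acute libraries). Col7a1, with 18 counts in healthy libraries, passed through those of each stage (153, 218 and 257). These calls add no support either.

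The step from acute injury to fibrosis gave 15 up-regulated collagen genes among 30 tested and 0 down-regulated, while 10.2% and 0.732% of all genes were called. The count of 0 stood with limma-voom, edgeR and DESeq2, no collagen gene was lower at an unadjusted p-value under 0.05, and 1 had a negative log2 fold change. From fibrosis to cirrhosis 23 of 35 were up-regulated and 3 down-regulated (34.3% and 29.5% of all genes). Among those tested, Col4a6, Col15a1, Col22a1 and Col24a1 had 6, 40, 12 and 12 counts in fibrosis and 134, 470, 638 and 156 in cirrhotic libraries. They passed the filter through cirrhosis, and Col19a1 through fibrosis (175 counts, against 2), so these genes add no support here. In all, 16 of the 30 collagen genes tested in both comparisons were DEG downwards at acute injury and at fibrosis, and 33.2% of all genes tested in both. Of these, 8 were up-regulated at cirrhosis against healthy (Col3a1, Col4a5, Col5a2, Col6a1, Col6a2, Col8a2, Col14a1 and Col16a1), out of 29 tested at all 3 stages, where 2.31% of all genes had this combination of calls. A further 3 (Col4a2, Col4a4 and Col13a1) were down-regulated at each of the 3 stages, beside 16.9% of all genes. The call of Col4a4 at cirrhosis was lost in 9 of 12 leave-one-out fits. The 3 stages share the same healthy libraries. No batch is named in the sources, so a batch effect in step with the stage of injury could not be separated from it and cannot be told apart.

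**Figure D1:**
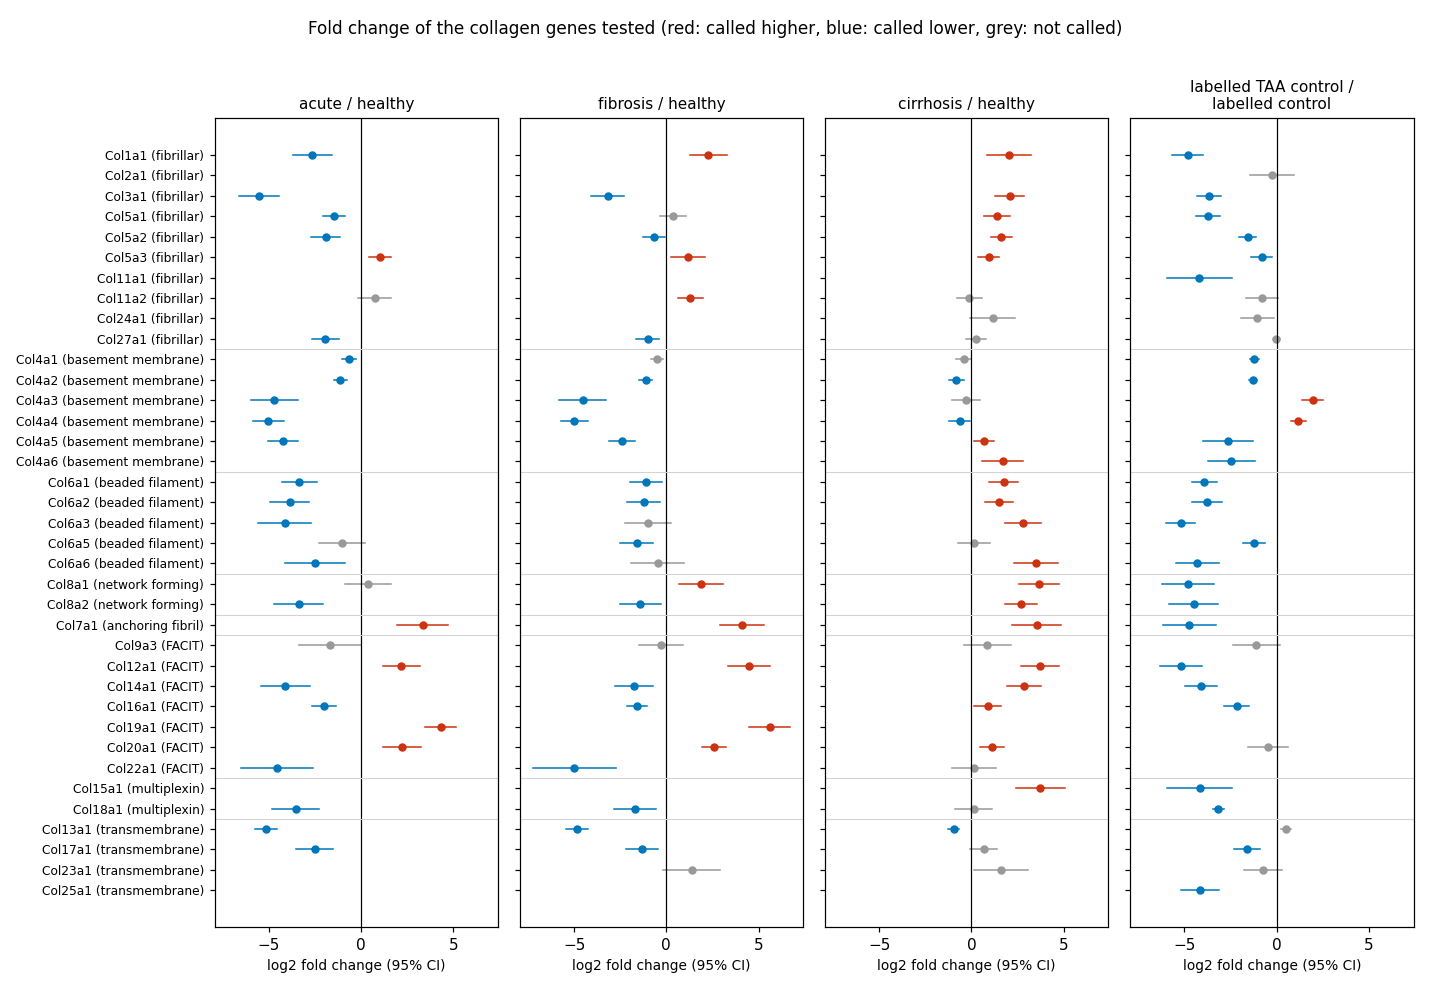
Log2 fold change (x axis, with 95% confidence interval from limma-voom) of each collagen gene tested (y axis, grouped by class) in 4 comparisons, coloured by call. Most points lie left of 0 in acute LSECs (21 of 30 called lower) and right of 0 in cirrhosis (19 of 33 called higher), and in the TAA experiment 25 of 35 are lower in the group labelled TAA control.

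Markers of other cells moved with these groups. Portal fibroblast markers (Thy1, Fbln2, Eln, Mfap4, Entpd2, Dpt, Pi16 and Islr, 7 of 8 in the files) summed to 786 to 1661 CPM in healthy, 5.01 to 8.02 in acute, 14.9 to 20.6 in fibrosis and 375 to 856 in cirrhotic libraries. Of these 7, 7 were down-regulated at acute injury and 5 at fibrosis (37.9% and 34.9% of all genes), with 0 up-regulated (35.5% and 35.3% of all genes). At cirrhosis 1 was up-regulated and 1 down-regulated, with a median log2 fold change of 0.18, so the lower sum there was not a fall of most markers. Of 10 stellate cell markers, 7 of 9 tested were down-regulated and 1 (Reln) up-regulated at acute injury (37.9% and 35.5% of all genes). At fibrosis 2 of 10 were up-regulated and 5 down-regulated (35.3% and 34.9% of all genes). At cirrhosis 5 of 10 were up-regulated and 0 down-regulated (27.1% and 24.7% of all genes). The sum of the stellate cell markers was 518 to 1248 CPM in healthy, 1322 to 2151 in acute, 1258 to 1715 in fibrosis and 464 to 1228 in cirrhotic libraries. In the acute and fibrosis libraries it was made mostly of Reln, with means of 1678 and 1377 CPM. Pdgfrb was at 7.24 CPM in healthy, 1.06 in acute, 8.06 in fibrosis and 41.1 in cirrhotic LSECs (means). Hand2 was at 0 in 2 acute libraries. Hepatocyte markers summed to medians of 18460, 339, 2872 and 7070 CPM in healthy, acute, fibrosis and cirrhotic libraries, and macrophage markers to 1276, 153, 56 and 830 CPM. Healthy libraries spread widely, from 1281 to 27370 CPM for hepatocyte and from 234.5 to 2220 CPM for macrophage markers. Cirrhotic libraries overlapped with them for both lists, and fibrosis libraries for hepatocyte markers. At cirrhosis 1 of 7 hepatocyte markers was down-regulated and 0 up-regulated, and 0 of 6 macrophage markers were called. The cholangiocyte sum was higher in acute (35.9 to 105.6 CPM) than in healthy libraries (1.97 to 26.9), with 1 of 4 markers tested up-regulated and 2 down-regulated. Lymphocyte and mesothelial markers were lower at acute injury (3 of 4 tested in each list, 0 up-regulated). Neutrophil markers summed to 0.107 to 2.61 CPM in healthy and 1.63 to 7.68 in cirrhotic libraries. Fewer cells of a type and less RNA per cell cannot be told apart in such bulk samples, and the part of other cells in the collagen levels was not tested.

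LSEC markers moved as well at acute injury and fibrosis. Of the 9 in the files, 7 were down-regulated in acute and 8 in fibrosis LSECs (37.9% and 34.9% of all genes), and 0 up-regulated. At cirrhosis 3 were down-regulated and 1 up-regulated, beside 24.7% and 27.1% of all genes, with a median log2 fold change of 0.019. The sum of the 9 markers was 14100 to 26580 CPM in healthy, 3604 to 4213 in acute, 2521 to 3537 in fibrosis and 14030 to 17760 in cirrhotic libraries. None of the 9 was at 0 in any library. Cdh5, the junctional cadherin of endothelium, was not a DEG at any stage, with means of 1293, 1597, 1040 and 1506 CPM in that order. Stab1 and Stab2, scavenger receptors of LSECs, were at 149 and 148 CPM in acute, 1177 and 3294 CPM in cirrhotic and 4956 and 3482 CPM in healthy LSECs (means).

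Type IV collagen, the basement membrane type, made up most collagen reads in each library. Its share of the summed collagen CPM had a median of 82.8% in healthy, 96.6% in acute, 88.9% in fibrosis and 61.6% in cirrhotic libraries. Col4a1 lay between 2120 and 3430 CPM in the 6 healthy libraries (median 2800). The 5 acute libraries were at 1590, 1430, 1640, 1550 and 2120 CPM, and the fibrosis libraries at 1700, 2040, 1490, 2000 and 1820. No acute or fibrosis library exceeded the lowest healthy one. Cirrhotic libraries lay between 1510 and 2590 CPM (median 1930) and overlapped with healthy. The log2 fold change of Col4a1 was -0.67 ± 0.168 (standard error) at acute injury (adjusted p = 0.00287), -0.51 ± 0.156 at fibrosis (adjusted p = 0.01, below the fold threshold) and -0.43 ± 0.183 at cirrhosis (adjusted p = 0.0591). Its call at acute injury was lost with library size in place of TMM factors (-0.26, adjusted p = 0.109) and without healthy replicate 3 (-0.58) or 4 (-0.53). It gained a call at fibrosis without healthy replicate 2 (-0.59, adjusted p = 0.00565) and at cirrhosis with library weights (-0.59, adjusted p = 0.0125).

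Its partner Col4a2 was down-regulated at each stage. Healthy libraries lay between 1750 and 2900 CPM (median 2170), acute libraries at 958, 894, 983, 986 and 1160, fibrosis libraries at 959, 1110, 792, 1070 and 1010, and cirrhotic libraries between 908 and 1580 (median 1250). In all 16 libraries of the 3 stages the level was under the lowest healthy one. The log2 fold changes were -1.13 ± 0.164 (adjusted p = 4.78e-05), -1.12 ± 0.164 (adjusted p = 6.45e-05) and -0.83 ± 0.186 (adjusted p = 0.00257). With library size only, the fall at cirrhosis was -0.48 and under the fold threshold.

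The second pair, Col4a3 and Col4a4, whose chains build with Col4a5 the type IV network known from the glomerulus, fell to a few percent of their healthy level at acute injury and fibrosis and were far higher again at cirrhosis. Col4a4 lay between 310 and 867 CPM in healthy LSECs (median 496). It was at 14.9, 14.3, 14.9, 8.04 and 37.1 CPM in acute and at 15.7, 23, 17, 19.9 and 7.61 CPM in fibrosis libraries. All 10 lay far under the lowest healthy library. At cirrhosis it was between 228 and 408 CPM (median 332), overlapping with healthy. The log2 fold changes against healthy were -5.03 ± 0.382 (adjusted p = 2.06e-07) and -4.98 ± 0.348 (adjusted p = 1.39e-07), and from fibrosis to cirrhosis it rose by 4.39 ± 0.255 (adjusted p = 1.55e-08). Its fall at cirrhosis against healthy (-0.65, adjusted p = 0.0499) was lost in 9 of 12 leave-one-out fits (-0.71 to -0.51), with library size only (-0.30) and with upper-quartile factors (-0.50). It was also lost with RLE factors (-0.63), without the low-count filter (-0.62) and with library weights (-0.37). A fit over all CCl4 groups (-0.65) and the replicate number as a block (-0.64) lost it too.

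Col4a3 lay between 21.4 and 124 CPM in healthy libraries (median 45.6). Acute libraries were at 1.96, 2.21, 1.83, 0.783 and 4.36 CPM, fibrosis libraries at 2.21, 3.4, 2.23, 2.87 and 0.817, and cirrhotic libraries between 29.4 and 53.6 (median 39.5). Acute and fibrosis libraries stood clear of the others, and cirrhotic libraries lay within the healthy range. Against healthy LSECs it changed by -4.71 ± 0.594 (adjusted p = 1.51e-05) and -4.54 ± 0.583 (adjusted p = 2.12e-05) on the log2 scale, and the log2 fold change at cirrhosis was -0.31 ± 0.349 (adjusted p = 0.47).

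The third pair carried few reads. Col4a5 lay between 4.24 and 9.92 CPM in healthy libraries (median 7.08), at 0.327, 0.245, 0.222, 0.438 and 0.568 CPM in acute, and at 0.889, 1.68, 1.06, 1.81 and 0.991 CPM in fibrosis libraries. Cirrhotic libraries lay between 8 and 17 CPM (median 9.89). It fell by 4.26 at acute injury and by 2.39 at fibrosis on the log2 scale (adjusted p = 8.37e-07 and 2.92e-05) and rose by 0.67 at cirrhosis (adjusted p = 0.0347), a rise that was lost without any of 6 single libraries, with log2 fold changes from 0.53 without healthy replicate 2 to 0.70 without cirrhotic replicate 4. Col4a6 had a mean under 1 CPM in each CCl4 group, with 27 counts in all healthy, 2 in all acute, 6 in all fibrosis and 134 in all cirrhotic libraries, and was up-regulated at cirrhosis against healthy (log2 fold change 1.70, adjusted p = 0.0139).

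**Figure D2:**
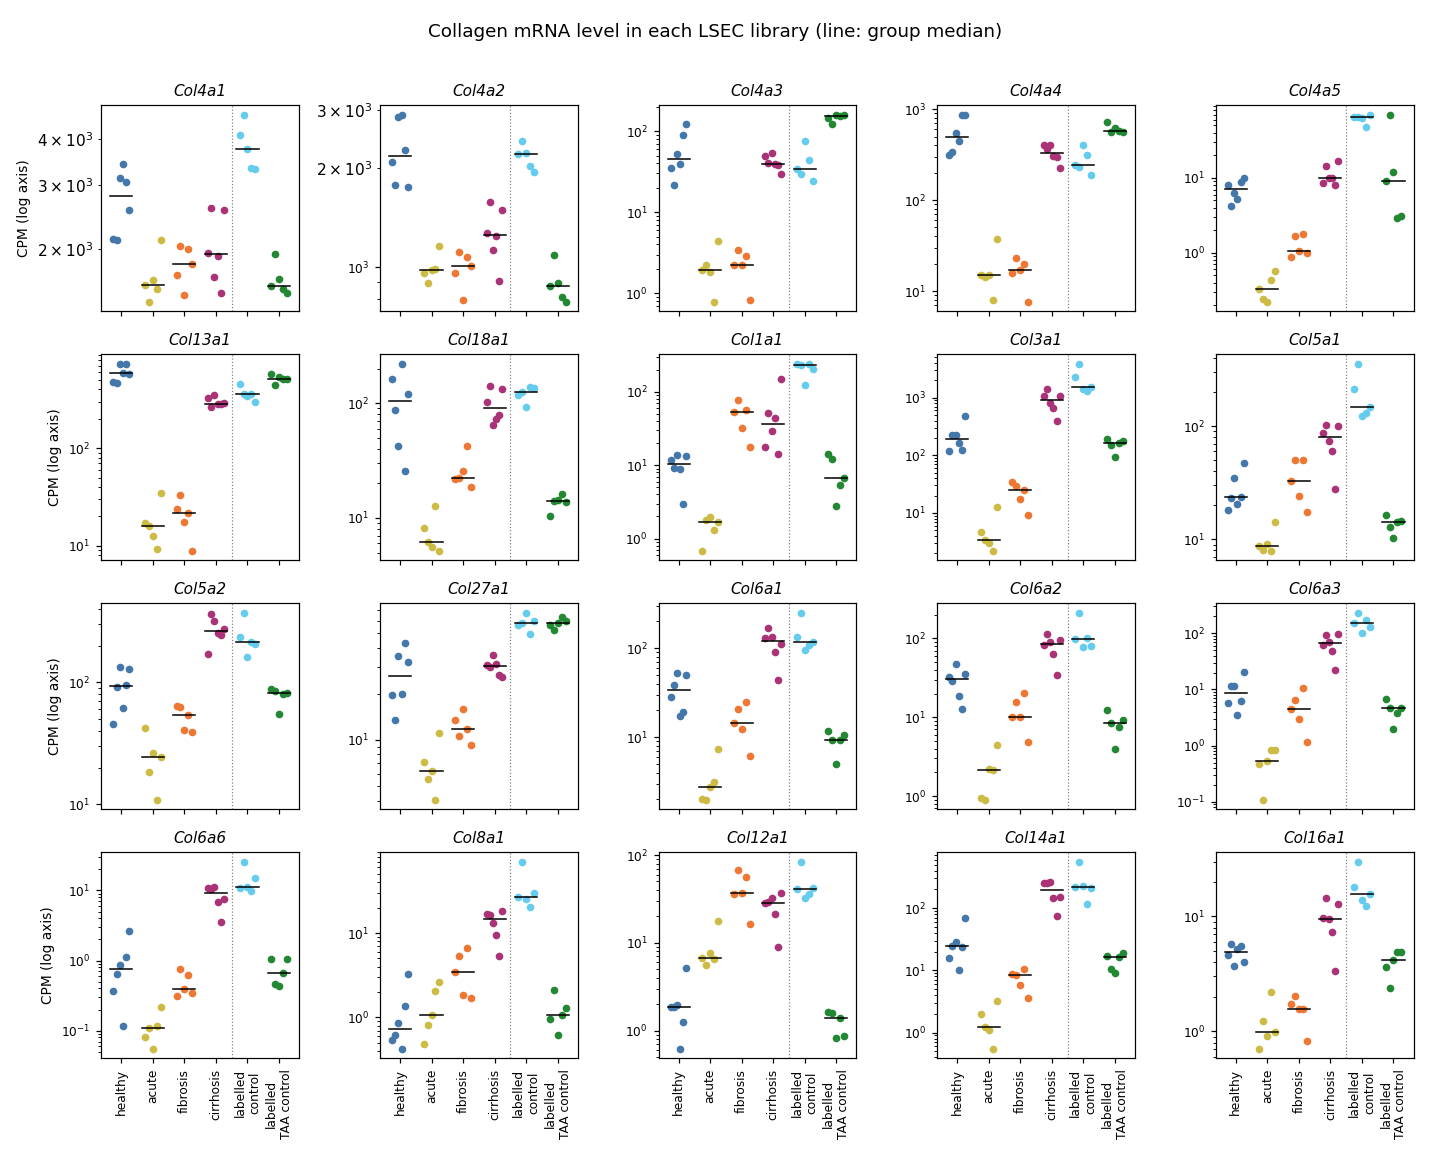
CPM (y axis, logarithmic) of the 20 collagen genes with a mean of at least 10 CPM in a group, in each library (points) of the 6 groups (x axis, black line the median, dotted line between the experiments). Col4a3, Col4a4 and Col13a1 are high in healthy and cirrhotic libraries and low in between (Col4a4 medians of 496 and 332 CPM against at most 37.1), while Col12a1 is above every healthy library in acute and fibrosis.

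Col13a1, a transmembrane collagen of cell contacts, had the pattern of Col4a4. It lay between 462 and 733 CPM in healthy libraries (median 583), at 17, 15.8, 12.6, 9.37 and 34.6 CPM in acute, at 23.8, 33.3, 17.4, 21.6 and 8.89 CPM in fibrosis, and between 261 and 348 CPM (median 286) in cirrhotic libraries. No library of any stage overlapped with healthy. Its log2 fold changes were -5.16 ± 0.276 (adjusted p = 1.28e-08), -4.86 ± 0.275 (adjusted p = 2.6e-08) and -0.96 ± 0.146 (adjusted p = 0.000242). Acute replicate 8 was the highest acute library for Col13a1, Col4a3 and Col4a4, and fibrosis replicate 17 the lowest fibrosis library for the same genes. Col17a1, another transmembrane collagen of hemidesmosomes, was at 1.02 CPM in healthy LSECs (mean) and fell by 2.53 at acute injury and 1.32 at fibrosis on the log2 scale (adjusted p = 0.000243 and 0.0113).

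Col18a1, the multiplexin whose end fragment is endostatin, varied widely among healthy libraries, from 25.5 to 221 CPM (median 104). It was at 8.17, 6.18, 5.55, 12.6 and 5.18 CPM in acute and at 22, 22.5, 25.9, 42.8 and 18.5 CPM in fibrosis libraries. Cirrhotic libraries were between 64 and 141 CPM (median 91.4). Acute libraries were all under the healthy ones, while fibrosis libraries overlapped with them. The log2 fold change was -3.55 ± 0.592 at acute injury (adjusted p = 0.000148), -1.72 ± 0.528 at fibrosis (adjusted p = 0.0108) and 0.14 ± 0.466 at cirrhosis (adjusted p = 0.817), and it rose after acute injury (1.87 from acute injury to fibrosis, adjusted p = 0.00473, and 1.90 from fibrosis to cirrhosis, adjusted p = 2.26e-05). Col15a1, the other multiplexin, had no count in the 5 acute libraries and 26 in all healthy ones, and was up-regulated at cirrhosis (log2 fold change 3.72, adjusted p = 0.000406), with 470 counts in the 6 cirrhotic libraries.

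Fibrillar collagens had a median share of collagen CPM of 4.75% in healthy, 1.91% in acute, 5.95% in fibrosis and 22.5% in cirrhotic libraries. Col3a1, the type III chain of reticular fibres, was between 117 and 484 CPM in healthy libraries (median 194). Acute libraries were at 4.63, 3.43, 3.06, 2.21 and 12.7 CPM, fibrosis libraries at 33.9, 29.1, 17.5, 24.6 and 9.19 CPM, and cirrhotic libraries between 386 and 1430 CPM (median 929). Acute and fibrosis libraries lay far under every healthy library, and the highest healthy library (replicate 6) overlapped with the lowest cirrhotic one (replicate 5). Against healthy, its log2 fold changes were -5.54 ± 0.492 (adjusted p = 7.79e-07), -3.18 ± 0.413 (adjusted p = 2.32e-05) and 2.08 ± 0.366 (adjusted p = 0.00057), and between cirrhosis and fibrosis 5.31 ± 0.376 (adjusted p = 8.53e-08).

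Col1a1, the type I chain that marks scar collagen, did not move with Col3a1 at fibrosis. It was between 2.93 and 14 CPM in healthy libraries (median 10.5), at 0.681, 1.8, 1.97, 1.31 and 1.7 CPM in acute and at 53, 78.7, 31.9, 56.6 and 17.6 CPM in fibrosis libraries. All acute libraries were under and all fibrosis libraries over the healthy range. Cirrhotic libraries spread from 14.1 to 148 CPM (median 36.6), with replicate 6 at the top and the others at 51.5 CPM or less. Its log2 fold changes were -2.65 ± 0.488 (adjusted p = 0.000317), 2.28 ± 0.459 (adjusted p = 0.000707) and 2.03 ± 0.561 (adjusted p = 0.00809). Col1a1 was the one collagen gene down-regulated at acute injury and up-regulated at fibrosis against healthy, as were 9 of all 14225 genes tested in both (0.0633%). From acute injury to fibrosis it rose by 4.98 ± 0.757 (adjusted p = 0.00443), and between fibrosis and cirrhosis the log2 fold change was -0.19 ± 0.567 (adjusted p = 0.76). With weights per library the rise at cirrhosis was 1.60 (adjusted p = 0.055).

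Type V chains, which sit inside type I fibrils, differed among themselves. Col5a1 was between 18.1 and 47.1 CPM in healthy libraries (median 23.5), at 8.79, 8.01, 9.08, 7.94 and 14.3 CPM in acute and at 32.9, 50, 24, 50.7 and 17.5 CPM in fibrosis libraries. It fell by 1.48 at acute injury (adjusted p = 0.000358), was not a DEG at fibrosis (log2 fold change 0.35, adjusted p = 0.342) and rose by 1.40 at cirrhosis (adjusted p = 0.00313, 27.7 to 103 CPM). Col5a2 was between 45.5 and 133 CPM in healthy libraries (median 93.2), at 42.1, 18.5, 26.5, 10.9 and 24.2 CPM in acute and at 63.9, 63.1, 40.9, 54 and 38.8 CPM in fibrosis libraries. The cirrhotic libraries, at 171 to 361 CPM (median 264), were all above the healthy ones. Col5a2 fell by 1.93 at acute injury (adjusted p = 0.0003) and rose by 1.62 at cirrhosis (adjusted p = 0.000369). Its fall at fibrosis (-0.69, adjusted p = 0.0366) was lost with library size only (-0.30), with library weights (-0.34) and without any of 6 single libraries (-0.58 without fibrosis replicate 17). Col5a3 was up-regulated at each stage, from 1.65 CPM in healthy to 3.3 in acute, 4.16 in fibrosis and 3.24 in cirrhotic LSECs (means, adjusted p = 0.00401, 0.0258 and 0.00852). The call at fibrosis was lost without healthy replicate 6 or fibrosis replicate 12 or 16, with log2 fold changes from 0.86 to 1.54 over the leave-one-out fits, and the calls at fibrosis and cirrhosis with library weights.

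Col27a1, a fibrillar chain of thin fibrils, was between 13.5 and 42.6 CPM in healthy libraries (median 25.9), at 7.16, 5.56, 6.28, 4.05 and 11 CPM in acute and at 13.5, 10.5, 15.8, 11.8 and 9.24 CPM in fibrosis libraries. It fell by 1.95 and 1.01 on the log2 scale (adjusted p = 0.000204 and 0.00721, the latter lost with library size only, -0.61) and was between 25.5 and 35.8 CPM at cirrhosis (adjusted p = 0.389). Col11a2 was at 0.689 CPM in healthy LSECs (mean) and up-regulated at fibrosis (1.53 CPM, adjusted p = 0.00275). Col2a1, Col11a1 and Col24a1 had means under 1 CPM in each CCl4 group.

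Type VI chains form beaded filaments around cells, and the 3 classical chains, Col6a1, Col6a2 and Col6a3, each fell at acute injury and rose at cirrhosis. Col6a1 was between 17.3 and 52.7 CPM in healthy libraries (median 33.5), at 2.04, 1.99, 2.78, 3.13 and 7.32 CPM in acute and at 14.4, 20.9, 12.3, 24.8 and 6.15 CPM in fibrosis libraries, and between 44 and 168 CPM (median 121) at cirrhosis. Col6a2 was between 12.7 and 47.3 CPM in healthy libraries (median 30.8), at 0.953, 0.899, 2.22, 2.12 and 4.45 CPM in acute, at 10, 15.7, 10, 20.6 and 4.81 CPM in fibrosis and between 34.5 and 114 CPM (median 86) in cirrhotic libraries. Both fell at acute injury with no overlap with healthy (log2 fold changes -3.35 and -3.89, adjusted p = 2.03e-05 and 1.67e-05) and rose at cirrhosis (1.74 and 1.49, adjusted p = 0.00151 and 0.003). At fibrosis they were down-regulated (-1.09 and -1.23, adjusted p = 0.027 and 0.0167). Col6a1 lost this call with library size only (-0.69), with library weights (-0.68), and without healthy replicate 3 (-0.96) or fibrosis replicate 12 (-1.08), 15 (-1.03) or 17 (-0.78), and Col6a2 with library size only (-0.83) and with library weights (-0.99).

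Col6a3 was between 3.46 and 20.6 CPM in healthy libraries (median 8.73), at 0.463, 0.109, 0.528, 0.829 and 0.821 CPM in acute and at 4.56, 6.43, 2.99, 10.5 and 1.17 CPM in fibrosis libraries. At cirrhosis all libraries were above the healthy ones, at 21.9 to 95.3 CPM (median 66). Its log2 fold changes were -4.16 ± 0.655 (adjusted p = 9.42e-05), -0.999 ± 0.575 (adjusted p = 0.133) and 2.80 ± 0.445 (adjusted p = 0.000318). Its rise from acute injury to fibrosis (3.20, adjusted p = 0.02) was lost without acute replicate 1 (adjusted p = 0.0512). Col6a6, an alternative chain, was at 0.117 to 2.61 CPM in healthy libraries (median 0.755), at most 0.221 in acute and 0.749 in fibrosis, and between 3.6 and 11.2 CPM in cirrhotic libraries, all above healthy (log2 fold change 3.50, adjusted p = 0.000325). Col6a5 fell at fibrosis, from a mean of 1.26 to 0.347 CPM (adjusted p = 0.00357).

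Type VIII chains build hexagonal networks in vessel walls. Col8a1 was at 0.428 to 3.31 CPM in healthy libraries (median 0.738), at 0.49, 0.817, 1.06, 2.07 and 2.62 CPM in acute and at 3.47, 5.3, 1.86, 6.63 and 1.69 CPM in fibrosis libraries. Against healthy it was not a DEG at acute injury (log2 fold change 0.36, adjusted p = 0.584) and rose at fibrosis (1.86 ± 0.546, adjusted p = 0.00815), but fibrosis against acute injury gave 1.56 (adjusted p = 0.0615). At cirrhosis it was at 5.36 to 18.2 CPM (log2 fold change 3.67 ± 0.499, adjusted p = 0.000152, and 1.86 against fibrosis, adjusted p = 0.00304). Col8a2 went the other way first, from 1.64 CPM in healthy LSECs to 0.121 in acute and 0.481 in fibrosis (means, adjusted p = 0.000272 and 0.0248), and then to 9.03 CPM at cirrhosis (log2 fold change 2.68, adjusted p = 0.00021). Its earlier fall at fibrosis (-1.42) was lost with library size only and without fibrosis replicate 13 or 17, with -1.73 to -1.17 over the leave-one-out fits.

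Among the fibril-associated collagens (FACIT), which sit on the surface of fibrils, Col12a1 rose at every stage. It was between 0.622 and 5.19 CPM in healthy libraries (median 1.86), at 6.64, 5.64, 7.69, 6.54 and 17.9 CPM in acute, at 36.1, 67.9, 36.9, 56.5 and 16.3 CPM in fibrosis and between 9.07 and 36.8 CPM (median 28.7) in cirrhotic libraries. Every library of the 3 stages was above every healthy one. The log2 fold changes were 2.16 ± 0.464 (adjusted p = 0.000989), 4.47 ± 0.524 (adjusted p = 9.85e-06) and 3.72 ± 0.487 (adjusted p = 0.000133). Cirrhosis against fibrosis gave -0.69 ± 0.406 (adjusted p = 0.139), which became a DEG with library weights (-1.15) and without fibrosis replicate 17 (adjusted p = 0.0241).

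Col14a1, also a FACIT, had the opposite course in early injury. It was between 10.1 and 69.2 CPM in healthy libraries (median 24.2), at 2.01, 1.25, 1.11, 0.553 and 3.25 CPM in acute, at 8.64, 8.27, 5.82, 10.6 and 3.59 CPM in fibrosis and between 75 and 266 CPM (median 198) in cirrhotic libraries. It fell by 4.12 and 1.73 (adjusted p = 6.33e-05 and 0.00557) and then rose by 2.86 (adjusted p = 0.000209) against healthy on the log2 scale, with all cirrhotic libraries above the healthy ones. Col16a1 was between 3.68 and 5.75 CPM in healthy libraries, at 0.708, 1.23, 0.917, 2.19 and 0.979 CPM in acute and at 1.72, 2.03, 1.56, 1.55 and 0.817 CPM in fibrosis libraries. It fell by 2.02 and 1.61 (adjusted p = 4.5e-05 and 0.000105), and its rise at cirrhosis (0.87, adjusted p = 0.0406, 3.33 to 14.4 CPM) was lost in 10 of 12 leave-one-out fits (0.69 to 0.93) and with library weights (0.50).

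Some scarce collagens were higher at acute injury and fibrosis. Col19a1, a FACIT, had 1 count in the 6 healthy and 2 in the 6 cirrhotic libraries, but 73 in the 5 acute and 175 in the 5 fibrosis libraries, and each of these 10 libraries held at least 10 counts. It was a DEG upwards at both stages (adjusted p = 1.05e-06 and 1.38e-06), and no fold is given against so few counts. It passed the count filter through these stages, so the calls add no support to the counts themselves. Col7a1, the anchoring fibril chain of epithelial basement membranes, was at 0.109 CPM in healthy LSECs and at 0.857, 1.31 and 0.984 CPM at the 3 stages (means, adjusted p = 0.00042, 3.45e-05 and 0.000507). It too passed the filter through the stages where it was higher, and its calls add no support. Col20a1 went from 0.367 to 1.92, 2.04 and 0.773 CPM (adjusted p = 0.000977, 8.59e-06 and 0.00801). Col22a1, a FACIT of tissue junctions, fell from 3.04 CPM in healthy LSECs to 0.0758 and 0.0744 CPM (adjusted p = 0.000513 and 0.000864) and was at 2.41 CPM at cirrhosis. These 2 falls were tested through its healthy counts and add no support. The 24 collagen genes under 10 CPM in every group include these, with a highest group mean of 9.03 CPM, and 6 of them were tested in no comparison.

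**Figure D3:**
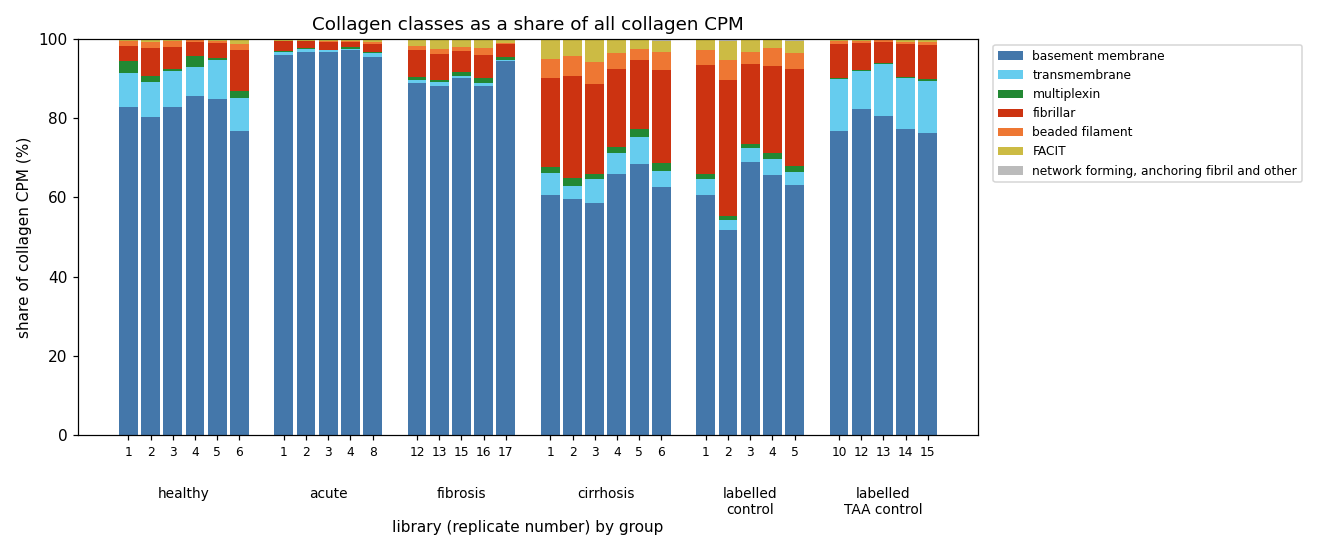
Share of the summed collagen CPM (y axis, percent) held by each class in each library (x axis, replicate numbers by group). Type IV (basement membrane) fills 95.5% to 97.2% of the bar in acute and 58.4% to 68.3% in cirrhotic libraries, where fibrillar collagens take 17.4% to 25.8%.

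The summed level of all collagen genes lay between 5310 and 7980 CPM in healthy, 2420 and 3470 in acute, 2560 and 3610 in fibrosis and 4040 and 7700 in cirrhotic libraries. Acute and fibrosis libraries were under all healthy and cirrhotic ones, and the latter groups overlapped. Within these overlapping sums the fibrillar class came to 214 to 707 CPM in healthy and 703 to 1990 CPM in cirrhotic libraries. FACIT collagens had a median share of 0.476% in healthy and 3.63% in cirrhotic libraries, and beaded filament collagens of 1.33% and 4.61%.

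Chains that assemble in one trimer were also set against each other within each library, as a log2 ratio of counts that does not depend on scaling between libraries. Of 6 pairs chosen, Col1a2 to Col1a1 was not analysed here, and 5 pairs in 4 comparisons gave 20 tests (exact permutation test, two-sided, Benjamini-Hochberg over the 20). Col4a2 to Col4a1 had a mean log2 ratio of -0.27 ± 0.188 (SD, n = 6) in healthy LSECs, between -0.54 and -0.033. It was -0.73 ± 0.0837 in acute, -0.87 ± 0.0348 in fibrosis and -0.67 ± 0.0797 in cirrhotic libraries (SD), and no library of these stages reached the healthy range. The differences were -0.46 (adjusted p = 0.0173, exact permutation), -0.60 (adjusted p = 0.0108) and -0.40 (adjusted p = 0.0108). Relative to Col4a1, Col4a2 was thus lower at each stage than in these healthy LSECs, although the RefSeq starts lie 77 bases apart. A low ratio was not particular to the CCl4 stages. Both groups of the TAA experiment lay under the healthy range too (means -0.89 labelled TAA control and -0.82 labelled control, highest library -0.72).

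Col5a2 to Col5a1 was 1.05 lower at fibrosis than in healthy LSECs on the log2 scale (means 0.66 and 1.71, adjusted p = 0.0108, exact permutation), while the difference at acute injury (-0.47, adjusted p = 0.248) and at cirrhosis (0.21, adjusted p = 0.623) did not pass. Col6a3 to Col6a1 was 1.09 higher at cirrhosis (means -0.83 and -1.92, adjusted p = 0.0108, exact permutation). Col8a2 to Col8a1 was lower at acute injury (difference -3.79, adjusted p = 0.0176, exact permutation) and fibrosis (-3.31, adjusted p = 0.0176), and at cirrhosis the difference was -1.05 (adjusted p = 0.248). Col6a2 to Col6a1 passed in no comparison, the nearest being acute injury (-0.54, adjusted p = 0.0649, exact permutation). The smallest p-value possible was 0.00216 for 6 against 5 and for 6 against 6 libraries.

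**Figure D4:**
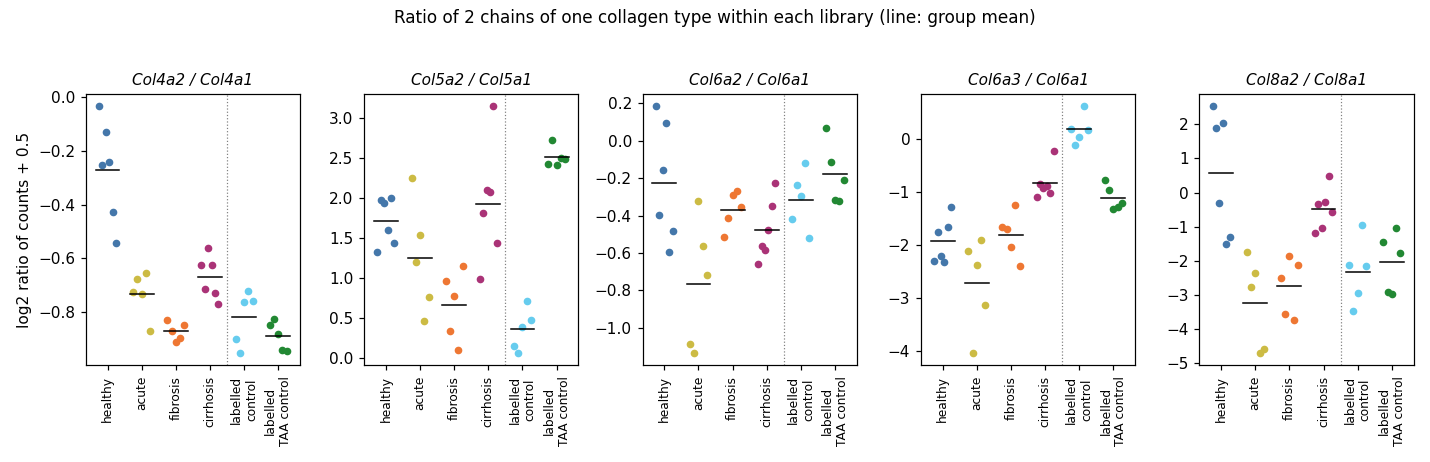
Log2 ratio of counts of 2 chains of one collagen type (y axis) in each library (points) by group (x axis, black line the mean, dotted line between the experiments). Col4a2 to Col4a1 lies between -0.54 and -0.033 in healthy libraries and under -0.54 in all libraries of the 3 CCl4 stages, and Col5a2 to Col5a1 separates the groups of the TAA experiment (means 2.51 and 0.36).

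In the TAA experiment, 2 of 35 collagen genes tested were higher and 25 lower in the group labelled TAA control than in the group labelled control, with 12.7% and 14.9% of all genes called (median log2 fold change -2.45 for the collagens and 0.026 for all genes). Col11a1 and Col25a1 were tested only here and passed the filter through the group labelled control (159 and 116 counts, against 7 and 6). So did Col4a6, Col7a1, Col8a2 and Col15a1 (270, 368, 962 and 315 counts, against 87, 13, 42 and 17). The calls of these genes add no support. The largest differences were in Col6a3, at 152, 233, 99, 169 and 131 CPM in the group labelled control and at 6.86, 4.7, 1.98, 3.87 and 4.62 CPM in the group labelled TAA control (log2 fold change -5.21 ± 0.349, adjusted p = 5.68e-06). Col12a1 was at 41, 84.5, 32, 35.7 and 42.7 CPM against 1.63, 1.6, 0.823, 1.38 and 0.877 (adjusted p = 3.9e-05). Neither gene came near an overlap.

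Scar collagens followed. Col1a1 was at 243, 235, 123, 237 and 204 CPM in the group labelled control and at 14.2, 12.3, 2.77, 5.45 and 6.73 CPM in the other (log2 fold change -4.83 ± 0.38, adjusted p = 1.35e-05). Col3a1 was at 2290, 3880, 1440, 1290 and 1520 CPM against 191, 153, 92, 163 and 178 (log2 fold change -3.66 ± 0.294, adjusted p = 1.39e-05). Col18a1 was at 117, 125, 92.7, 139 and 135 CPM against 10.4, 14, 14.3, 16.1 and 13.7 (log2 fold change -3.15 ± 0.139, adjusted p = 4.26e-07). Replicate 2 of the group labelled control was the highest library for Col3a1, Col5a1, Col6a1, Col6a2, Col6a3, Col12a1 and Col14a1, and these differences kept their call without it.

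Type IV chains split by pair. Col4a1 and Col4a2 were lower in the group labelled TAA control (log2 fold changes -1.22 and -1.29, adjusted p = 2.55e-05 and 1.35e-05), with Col4a2 at 877, 1090, 893, 809 and 784 CPM against 2200, 2410, 2220, 2020 and 1950. Col4a3 was higher there, at 147, 124, 159, 153 and 159 CPM against 34.4, 29.7, 75.4, 43.7 and 24 (log2 fold change 1.96 ± 0.253, adjusted p = 0.000169), as was Col4a4, at 716, 558, 619, 577 and 554 CPM against 242, 229, 404, 316 and 190 (1.17 ± 0.185, adjusted p = 0.00052). These were the only collagen genes called higher. Col13a1 had a log2 fold change of 0.51 (adjusted p = 0.00367), under the fold threshold. Col4a5 was at 64.1, 65.7, 63.4, 48.3 and 69.5 CPM in the group labelled control and at 9.06, 68.7, 12.1, 2.92 and 3.15 CPM in the other, where replicate 12 stood with the first group. Its call (-2.64, adjusted p = 0.00467 with limma-voom) was lost with edgeR (-1.69, adjusted p = 0.079), and without replicate 12 the log2 fold change was -3.38. Col4a6, the other gene of that pair, had 87 counts in the group labelled TAA control, 64 of them in replicate 12, and 270 in the other group (log2 fold change -2.45, adjusted p = 0.0049).

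Col14a1 was at 221, 559, 229, 116 and 211 CPM in the group labelled control and at 17.1, 10.4, 8.99, 16.5 and 18.7 CPM in the other (adjusted p = 2.87e-05), and Col8a1 at 26.8, 70.2, 25.4, 20.2 and 29.8 CPM against 0.95, 2.1, 0.625, 1.07 and 1.28 (adjusted p = 0.000209). Both stood apart between the groups in every library. Col27a1 did not differ in level beyond its spread, at 48.8 to 67.7 and 51.8 to 62.9 CPM (log2 fold change -0.005 ± 0.0883, adjusted p = 0.968). In the chain ratios, Col5a2 to Col5a1 was higher by 2.16 in the group labelled TAA control (adjusted p = 0.0176, exact permutation, with 0.00794 the smallest p-value for 5 against 5) and Col6a3 to Col6a1 lower by 1.30 (difference -1.30, adjusted p = 0.0176), while Col4a2 to Col4a1 differed by -0.069 (adjusted p = 0.248). Of the stellate cell markers, 8 of 10 were lower in the group labelled TAA control and 0 higher, with sums of 343 to 469 CPM against 730 to 1784 CPM. Of the portal fibroblast markers, 5 of 7 were lower and 2 higher (298 to 432 CPM against 434 to 1135). Hepatocyte markers (5 of 7, with median sums of 1147 against 3151 CPM), cholangiocyte markers (4 of 4 tested) and mesothelial markers (2 of 2 tested) were also lower. On the other side, 2 of 9 LSEC, 2 of 3 lymphocyte and 1 of 6 macrophage markers tested were higher, and 0 of each list lower. Of all genes, 14.9% were called lower and 12.7% higher. The part of these cells in the collagen differences was not tested. In this group replicates 14 and 15 were the most alike of any pair within a group (chi-square per degree of freedom of 2.96, at least 23.6 in all others). That value exceeds counting noise, as 2 preparations of 1 rat also would, so it does not show that they came from separate rats. They were kept as 2 libraries, and summed as 1 they gave 2 higher and 26 lower of 36.

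Genes that make and process collagen were called in both directions. Of 29 listed genes for hydroxylases, chaperones and propeptide proteases, 27 were in the files. At acute injury 7 of 26 tested were up-regulated and 15 down-regulated (26.9% and 57.7%, beside 35.5% and 37.9% of all genes, median log2 fold change -0.83). At fibrosis the counts were 10 and 13 of 27 (37% and 48.1%, beside 35.3% and 34.9%, median -0.46). At cirrhosis they were 6 and 8 of 25 (24% and 32%, median -0.38), near the 27.1% and 24.7% of all genes. In the TAA experiment 2 were higher and 8 lower of 24 in the group labelled TAA control (8.33% and 33.3%, beside 12.7% and 14.9% of all genes). Tll1, a tolloid-like protease that trims procollagen ends, was at 0.281 CPM in healthy LSECs, 50.5 in acute, 83.8 in fibrosis and 4.42 in cirrhotic LSECs (means, adjusted p = 1.2e-08, 3.3e-08 and 0.000228). Tll2, its relative, was at 0.0137 CPM in healthy LSECs and at 1.03 and 1.75 CPM in acute and fibrosis (adjusted p = 9.5e-06 and 1.84e-06). Tll2 passed the count filter through these 2 groups, so its calls add no support.

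Pcolce, the enhancer of that trimming, fell from 26.7 to 0.462 CPM at acute injury and 1.71 CPM at fibrosis (adjusted p = 2.07e-07 and 2.07e-06). Plod2, the lysyl hydroxylase of telopeptides, rose from 0.52 to 3.11 CPM at acute injury, 11.3 CPM at fibrosis and 7.71 CPM at cirrhosis (adjusted p = 0.000273, 2.55e-08 and 6.74e-05), and P4ha3, a prolyl 4-hydroxylase subunit, from 0.0894 to 1.76 CPM at fibrosis (adjusted p = 3.05e-05). P4ha3 passed the count filter through the fibrosis libraries, so its call adds no support. Other large falls were those of Adamts14, an N-propeptidase, and P3h2, a prolyl 3-hydroxylase that acts on type IV collagen, at acute injury (log2 fold changes -4.40 and -3.55, adjusted p = 0.00212 and 5.12e-08), and of Colgalt2, which adds galactose, and Sparc, a collagen-binding matrix protein, at fibrosis (-3.58 and -3.52, adjusted p = 1.73e-07 and 1.45e-07). At cirrhosis the largest falls were in Plod3, Colgalt1 and P3h3, all enzymes of collagen modification (-1.53, -1.30 and -1.20, adjusted p = 0.000154, 0.000192 and 0.000391), and Adamts2, the main N-propeptidase, rose from 5.41 to 22.2 CPM (adjusted p = 0.000821).

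Of 10 collagen receptors, 3 of 5 tested were up-regulated and 2 down-regulated at acute injury (35.5% and 37.9% of all genes), 4 and 1 of 6 at fibrosis (35.3% and 34.9%) and 3 and 0 of 6 at cirrhosis (27.1% and 24.7%). Itgb1, the integrin chain common to the collagen-binding integrins, was at 473 CPM in healthy, 1862 in acute, 1997 in fibrosis and 976 in cirrhotic LSECs (means, adjusted p = 8.59e-06, 2.75e-06 and 0.00073). Itga2 rose from 0.081 CPM to 8.04 and 14.4 CPM at acute injury and fibrosis (adjusted p = 3.78e-06 and 2.3e-06), and Itga1 from 223 to 894 CPM at acute injury (adjusted p = 0.000282). The receptor kinase Ddr1 fell by 2.04 at acute injury and 1.22 at fibrosis (adjusted p = 0.000275 and 0.0187), while Ddr2, which binds fibrillar collagen, rose from 0.224 CPM to 1.71 at fibrosis and 2.79 at cirrhosis (adjusted p = 1.97e-06 and 5.63e-05). Itga11 rose at cirrhosis from 0.232 to 1.02 CPM (adjusted p = 0.00546), and Mrc2, an endocytic collagen receptor, fell from 5.75 to 0.906 CPM at acute injury (adjusted p = 0.0159). Itga2, Ddr2 and Itga11 were scarce in healthy LSECs and passed the count filter through the groups where they were higher. Their calls are part of the receptor counts and add no support. In the TAA experiment 4 of 7 receptors were lower and 0 higher in the group labelled TAA control (14.9% and 12.7% of all genes).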

How the data were processed

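Poly(A) RNA of LSECs was sequenced from strand-specific libraries of 32 rat samples. The authors mapped reads to Rnor_6.0 with STAR and deposited RSEM expected counts (estimated counts) for 32623 genes, not normalized or pooled. Tool versions are not given in the sources used here. RSEM divides reads shared between near-identical genes, so such genes are less certain. Expected counts were rounded, filtered with filterByExpr and tested with limma-voom 3.58.1 (TMM factors, R 4.3.3), each fit holding the libraries of 2 groups and no covariate. Alternatives used edgeR 4.0.16, DESeq2 1.42.0, other scalings, filters, thresholds and library weights, and left out each library in turn. CPM was computed within each experiment. Chain ratios added a pseudocount of 0.5 to both counts. The limma-voom, edgeR and DESeq2 fits were also run on counts simulated for cirrhosis against healthy, with 1 spread for all genes. That setting is simpler than these data, so it does not show how the tests perform here. The chain ratio test was not simulated. Figures were drawn with matplotlib 3.10.9. Libraries are separate samples by label, so p-values measure the spread between these samples. The named collagens have a mean of at least 10 CPM in a group, and up to 3 rises and 3 falls are named from the biosynthesis and receptor lists at each stage. The members and lists were chosen with earlier results of these data known.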

Additional observations from a re-analysis of the deposited data

Results flagged for a closer look

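In 8 of 120 groups of libraries looked at for the 20 named collagen genes, a single library was separated from its group beyond Dixon's critical value, and chance alone gives about 1 such group in 20 (6 here). Acute replicate 8 stood above its group in Col5a1 (14.3 CPM, others 7.94 to 9.08) and Col12a1 (17.9 CPM, others 5.64 to 7.69), and healthy replicate 5 stood below in Col1a1 (2.93 CPM, others 8.94 to 14). In the group labelled control of the TAA experiment, replicate 2 was high in Col6a2 (213 CPM, others 78.3 to 101), replicate 3 low in Col1a1 (123 CPM, others 204 to 243) and replicate 4 low in Col4a5 (48.3 CPM, others 63.4 to 69.5). In the group labelled TAA control, replicate 13 was low in Col6a1 (4.97 CPM, others 9.21 to 11.6) and Col5a2 (55.1 CPM, others 80.8 to 88.3).

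For 8 of 30 collagen genes tested in both comparisons, the fold change against healthy was a significant fall at fibrosis and a significant rise at cirrhosis, as for 2.41% of all genes tested in both. The genes were chosen for these opposite calls against the same healthy libraries, so the values that follow describe them and add no support. The log2 fold change of cirrhosis against fibrosis was 5.31 for Col3a1, 4.64 for Col14a1, 4.16 for Col8a2, 3.12 for Col4a5, 2.88 for Col6a1, 2.77 for Col6a2, 2.53 for Col16a1 and 2.37 for Col5a2. With single libraries left out, the rise of Col16a1 was lost in 10 of 12 fits and that of Col4a5 in 6 of 12, and the fall of Col5a2 in 6 of 11, that of Col6a1 in 4 and that of Col8a2 in 2. Portal fibroblast and stellate cell markers moved between the same groups, and their part was not tested.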

How the results depend on the processing

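Of 98 calls among the 20 named collagen genes in 6 comparisons, 15 were lost under at least 1 alternative, and none of 2655 values reversed. The number of collagen genes called moved by more than 1.5 times in 3 cases: with library size only, 11 were lower at fibrosis and 1 at cirrhosis against healthy (17 and 3 with TMM), and with library weights 5 were lower at cirrhosis than at fibrosis (3 without). Among chain ratios, Col6a2 to Col6a1 at acute injury ranged from -0.6504 to -0.4470 and Col5a2 to Col5a1 at acute injury from -0.7228 to -0.2719 with 1 library left out, and passed without acute replicate 3 or healthy replicate 5, and without acute replicate 1, respectively. Library size only moved the median log2 fold change of all genes to between 0.32 (acute injury) and 0.42 (cirrhosis) against healthy, and upper-quartile factors moved it to 0.21 at cirrhosis. Of all genes called, the share higher was 50.3% at fibrosis and 52.2% at cirrhosis against healthy, and 60.9% and 71.3% with library size only. Over all genes, the number lower at cirrhosis against healthy went from 3658 to 2303 with library size only. Between fibrosis and acute injury 102 genes were lower, and 194 with unadjusted p-values, 264 with library weights, 278 without acute replicate 8 and 1116 without a fold threshold (the share higher going from 93.3% to 60.5%), while 1427 were higher, and 661 in a fit over all CCl4 groups and 943 without acute replicate 1. Without a fold threshold 3724 genes were higher and 3415 lower in the TAA experiment, against 1826 and 2144. The cause of these changes was not tested. The replicate numbers shared by healthy, acute and cirrhotic libraries come from different rats, and 5 of 10 same-number pairs correlated above 0.1 (range -0.22 to 0.25), so they were not taken as pairs. With the replicate number as a block, 5 collagen genes were higher and 23 lower at acute injury and 18 and 2 at cirrhosis, and a sign-flip test over pairs gave -0.3997 for Col4a2 to Col4a1 and 1.089 for Col6a3 to Col6a1 at cirrhosis with adjusted p = 0.0649 for both (exact permutation, smallest possible p 0.0312). The ratio of Col1a2 to Col1a1 was not run.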
